A study of Homo sapiens with 18 samples.

Results

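The cytosolic ribosomal protein genes were followed as a set of constitutively used starts in Ccd18-Co, an established line of human colon fibroblasts, whose open chromatin was measured by bulk assay for transposase-accessible chromatin with sequencing (ATAC-seq). A peak belonged to the set when its centre lay within 1 kb of an annotated transcript start of an autosomal protein-coding gene with an RPL or RPS symbol, RPSA and the stalk genes RPLP0, RPLP1 and RPLP2 included (GENCODE release 44, hg38). This gave 105 of the 334857 peaks, at 76 of 77 such genes. The missing gene was RPL10L, an intronless testis copy of RPL10, which had no peak within that distance of a start.

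The libraries formed 3 groups of 6. The labels name no cytokine or compound for the unstimulated cells. Cells of both stimulated groups received 3 pulses of TNF, OSM and IL-17A at 10 ng/ml each with IL-1β at 0.1 ng/ml, each pulse lasting 72 h and followed by 96 h of recovery. After a rest of 1 week they were given the solvent DMSO or 250 nM belinostat, a histone deacetylase inhibitor, for 5 days, and chromatin was prepared 2 weeks later. These are the doses of the labels, whereas the study's own methods state more belinostat and, in places, less IL-1β. No group received belinostat without cytokines, and all cells came from a single line. The labels do not say that the libraries of a group came from separate cultures, so p-values measure the spread between these libraries. In what follows, the cytokine contrast is DMSO minus unstimulated, the belinostat contrast is belinostat minus DMSO, and the residual contrast is belinostat minus unstimulated. The first and second share the DMSO libraries, and the third shares a group with each of the others, so their values are given side by side.

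Ribosomes consist of a small and a large subunit, in which RPS and RPL proteins, respectively, hold ribosomal RNA. RPLP0, RPLP1 and RPLP2 form the stalk of the large subunit, which recruits the factors that drive translation. Nearly every dividing cell transcribes these genes strongly, and several serve as references in expression assays. Their transcripts typically begin with a C followed by an unbroken run of pyrimidines, the 5′ terminal oligopyrimidine (TOP) motif, through which growth signals control their translation. Loss of 1 copy of some of them causes Diamond-Blackfan anaemia, a failure of red cell production.

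The DNA around the canonical starts is shown first because the start motif is what these genes share. Each line gives 60 bases before the start and 10 bases from the start base onward, read 5′ to 3′ along the gene (hg38). Capitals mark the run of pyrimidines at the start, as far as it reaches into the window. The run includes the start base in each line that has one except RPL10A, where it begins downstream of that base. The first group holds the stalk genes, and the third RPL13A and RPS18, which are common reference genes. The second holds genes with high levels or large differences in the libraries, and RPL10A, whose fall in DMSO libraries was small. In RPS18 the capitals also cover an ETS word, CTTCCG, directly before the run.

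RPLP0 (chr12:120201102-120201171, minus strand): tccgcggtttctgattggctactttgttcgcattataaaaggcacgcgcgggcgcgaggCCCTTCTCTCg
RPLP1 (chr15:69452758-69452827, plus strand): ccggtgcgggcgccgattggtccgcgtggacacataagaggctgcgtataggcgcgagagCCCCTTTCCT
RPLP2 (chr11:809907-809976, plus strand): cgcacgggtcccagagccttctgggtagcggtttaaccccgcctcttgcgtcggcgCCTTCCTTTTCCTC

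RPL18 (chr19:48619169-48619238, minus strand): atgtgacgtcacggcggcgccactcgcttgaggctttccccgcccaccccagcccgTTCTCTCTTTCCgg
RPS19 (chr19:41860195-41860264, plus strand): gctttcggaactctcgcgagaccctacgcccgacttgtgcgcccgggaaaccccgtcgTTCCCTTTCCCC
RPL14 (chr3:40457279-40457348, plus strand): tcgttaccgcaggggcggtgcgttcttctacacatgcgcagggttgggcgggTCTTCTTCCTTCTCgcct
RPS16 (chr19:39435940-39436009, minus strand): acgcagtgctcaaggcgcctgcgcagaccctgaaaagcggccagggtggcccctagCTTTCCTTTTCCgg
RPL10A (chr6:35468341-35468410, plus strand): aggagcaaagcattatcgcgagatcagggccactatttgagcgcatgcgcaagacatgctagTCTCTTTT

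RPL13A (chr19:49487548-49487617, plus strand): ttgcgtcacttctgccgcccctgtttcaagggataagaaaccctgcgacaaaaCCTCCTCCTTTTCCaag
RPS18 (chr6:33272015-33272084, plus strand): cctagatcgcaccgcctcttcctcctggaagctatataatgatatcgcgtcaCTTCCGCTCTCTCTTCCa

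Some paralogues of these genes look different at the same place. RPL3L is a muscle form of RPL3, RPL10L and RPL39L are best known from testis, and RPS27L is a p53-induced relative of RPS27. None of RPL10L, RPL39L and RPS27L, which are shown here, had such a run at its start, and the only capitals, in RPS27L, mark an ETS word, CGGAAG.

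RPL10L (chr14:46651772-46651841, minus strand): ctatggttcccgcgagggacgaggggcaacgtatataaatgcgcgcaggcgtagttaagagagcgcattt
RPL39L (chr3:187139487-187139556, minus strand): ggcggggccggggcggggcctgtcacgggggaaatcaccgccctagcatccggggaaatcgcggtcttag
RPS27L (chr15:63157468-63157537, minus strand): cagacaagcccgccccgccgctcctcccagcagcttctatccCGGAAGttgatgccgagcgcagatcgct

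A run of at least 6 pyrimidines touching the 11 bases centred on the start was present at 65 of the 76 genes with a peak (85.5%), against 22.2% of 19111 autosomal protein-coding starts. The run had a median length of 12 bases, against 8 at all starts that had one. It was present at 37 of 45 genes of the large subunit and 28 of 31 of the small subunit. A C at the start base, counted after the sequences had been seen, occurred at 59 of the 76 genes (77.6%), against 10.6% of all starts. Among related gene lists, the run occurred at 14 of 16 translation factor genes, which are also known for TOP transcripts. It was found at 12 of 78 mitochondrial ribosomal protein genes (15.4%) and 9 of 38 proteasome genes (23.7%).

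Words of transcription factor motifs were searched on both strands from 250 bases before to 50 bases from the canonical start. None of the words contains another, although matches can overlap, and a match describes letters and not a bound site. The ETS word CGGAAG occurred at 57.9% of the 76 genes, against 25.6% of all autosomal protein-coding starts. The palindromic word CTCGCGA occurred at 21.1%, against 3.40%. The word AAGATGG, bound by YY1, occurred at 18.4%, against 6.34%. The NRF1 word CGCATGC was present at 10.5% and 5.04%, and the CRE word TGACGTC at 9.21% and 4.56%. Shares were closer for the SP word GGGCGG (59.2% and 61.7%), CCAAT (32.9% and 35.7%), TATAAA (7.89% and 9.74%) and the E-box CACGTG (6.58% and 8.69%). The AP-1 word TGANTCA, bound by FOS and JUN proteins that respond to inflammatory signals, occurred at 1 of the 76 genes, against 5.37% of all starts. GC content had a median of 60% in these windows, against 63.7% at all starts, and the number of CpG sites had a median of 25, against 23.

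**Figure D1:**
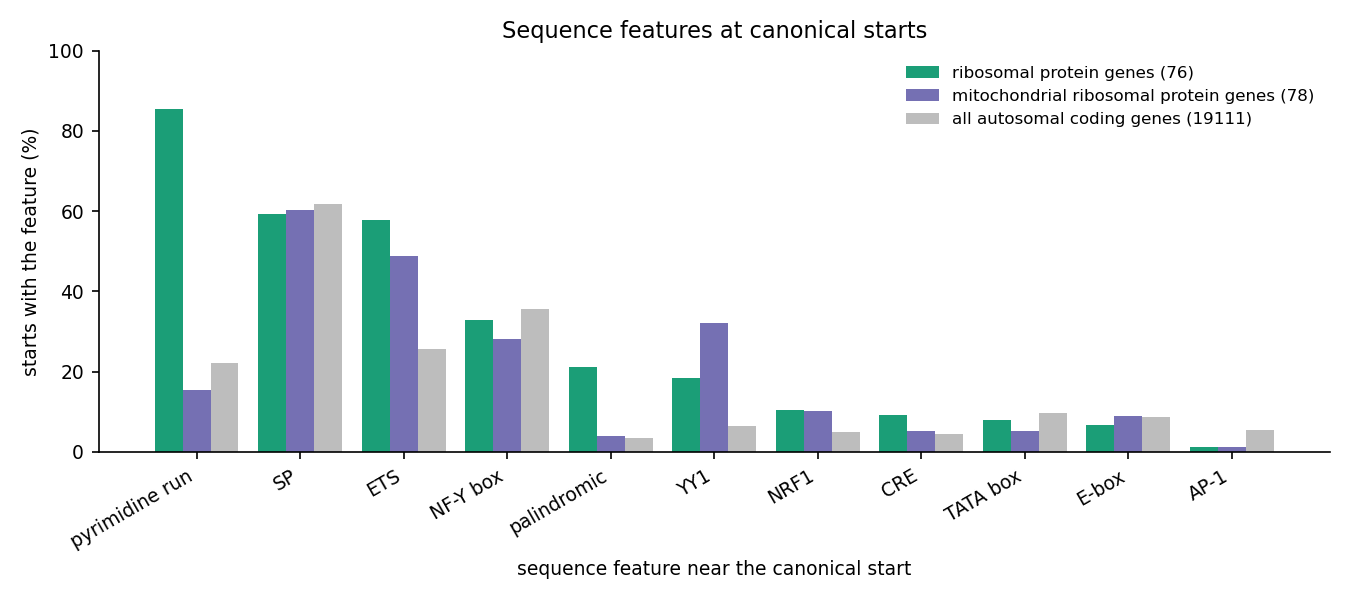
Share of canonical starts (vertical axis, percent) that hold each sequence feature, for the 76 ribosomal protein genes with a peak, all autosomal protein-coding genes and mitochondrial ribosomal protein genes (bars). The pyrimidine run was found at 85.5% of the ribosomal protein starts and 22.2% of all starts, and the palindromic word at 21.1% and 3.40%.

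A gene's member peak with the highest mean log2 CPM (counts scaled to library size, prior count 2) was taken as its main peak, which gave 76 main and 29 other member peaks. Of the 77 genes, 54 had 1 member peak and 22 had more. Main peaks were wide, with a median of 1054 bp, while the other members had a median of 273 bp, close to the 275 bp of all peaks. The canonical start lay inside 72 of the 76 main peaks, the exceptions being RPL36, RPL3L, RPL6 and RPL7. Within those 72, it lay at a median of 49.6% of the peak's width from its upstream edge (range 10.3% to 89.6%), and 64 were in the central 50%. The centre of the main peak fell in an exon at 44 genes, in an intron at 11 and outside the gene at 21. A start of another protein-coding gene lay within 1 kb of the centre of 21 main peaks, as for RPS27A with CLHC1 and RPL18 with SPHK2, and the signal of such a peak cannot be assigned to either gene.

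Counts in peaks ranged from 7077321 to 11352032 per unstimulated library, from 6488975 to 8066642 per DMSO library and from 4661678 to 6370845 per belinostat library. By level per kb, LUM, COL6A1, COL3A1, THY1 and DCN lay between the 28.6th and the 45.0th percentile of protein-coding genes. PDGFRB, COL1A2 and COL1A1 lay between the 80.6th and the 95.6th. Ccd18-Co cells thus had a start peak at 8 of 8 fibroblast marker genes. Summed CPM over the unstimulated libraries was 195 to 223 for these markers, 8.01 to 10.2 for epithelial markers (3 of 4 with a start peak, none at KRT20), 4.93 to 8.21 for leukocyte markers (3 of 4, none at LYZ) and 2.25 to 4.19 for endothelial markers (4 of 4). Fibroblast markers had lower sums in DMSO (133 to 170) and belinostat libraries (122 to 183), while the endothelial sums were 4.15 to 6.05 and 3.56 to 8.78. Their part in the results was not tested. The share of peaks with a count of 0 was 11.3% in unstimulated 6, against 1.01% to 4.2% in the rest of its group, 5.35% in belinostat 1, against 0.505% to 2.24%, and 2.22% in DMSO 3, against 0.384% to 1.1%.

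Member peaks took between 0.2245% and 0.2412% of the counts of unstimulated libraries, with a median of 0.2273%. The share was 0.1959% to 0.2242% in DMSO libraries (median 0.2046%) and 0.1829% to 0.2227% in belinostat libraries (median 0.194%). Unstimulated and DMSO libraries did not overlap, and DMSO and belinostat libraries did. All autosomal coding starts together took 37.93% to 40.39%, 35.34% to 38.17% and 33.55% to 38.55% of the counts of the 3 groups. Expressed as a percent of the counts at coding starts, the members' share averaged 0.588%, 0.571% and 0.56%, so that most of the group difference in the members' share was also present at coding starts in general. In bulk libraries, fewer open cells and less accessibility per cell cannot be told apart.

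**Figure D2:**
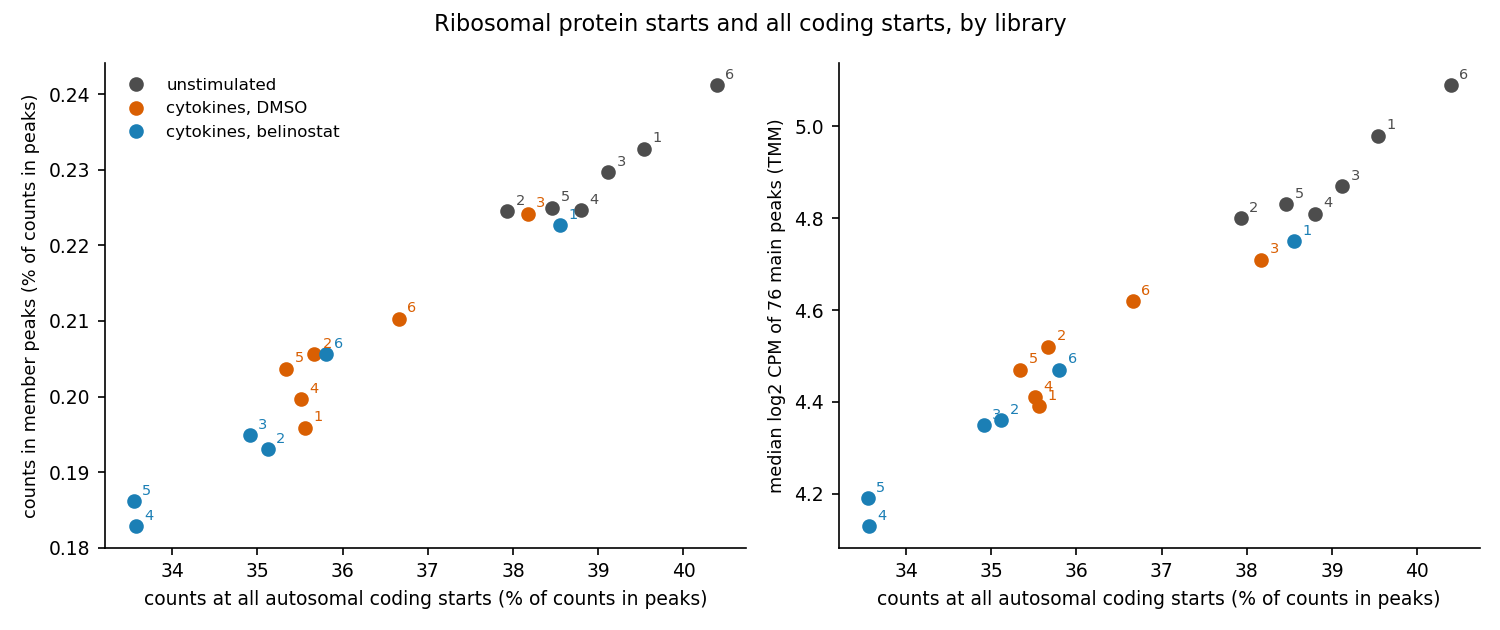
Each point is a library, coloured by group. The horizontal axis gives the share of its counts at all autosomal coding starts (percent) and the vertical axes give the members' share of all counts in peaks and the median log2 CPM of the 76 main peaks. The library farthest to the right in each group (unstimulated 6, DMSO 3 and belinostat 1) was also the highest of its group on the vertical axes.

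A single library was highest at most of these genes in each group. Unstimulated 6 gave the highest value of its group at 56 of the 76 main peaks, DMSO 3 at 62 and belinostat 1 at 66. The same libraries had the largest share of counts at coding starts in their groups (40.39%, 38.17% and 38.55%) and the largest share of peaks with a count of 0, and the part of this in the results was not tested. Median log2 CPM over the main peaks ran from 4.80 to 5.09 in the unstimulated group, from 4.39 to 4.71 in the DMSO group and from 4.13 to 4.75 in the belinostat group. Across libraries of a group the main peaks varied less than most peaks. Their within-group SD of log2 CPM had a median of 0.14, 0.176 and 0.236 in the unstimulated, DMSO and belinostat groups, against 0.403, 0.389 and 0.443 over all peaks. The strongest 5% of peaks by average log2 CPM (16743 peaks) had nearly the same SDs, 0.141, 0.172 and 0.235.

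Levels were compared between genes per kilobase of peak width. Main peaks had a median level of 22.3 CPM per kb, against 14.7 over the main start peaks of all protein-coding genes, 3.18 over all peaks and 24.5 over the strongest 5%. By this level their median percentile among 16824 protein-coding genes with a start peak was 67.5. Only 9 of the 76 lay above the 90th percentile, and 16 lay below the median. By average log2 CPM over the whole peak, 63 of the 76 main peaks were among the strongest 5%.

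RPL18, which encodes a protein of the large subunit, was among the highest, with 76.4 ± 6.98 CPM per kb in unstimulated libraries (SD, n = 6), 57.6 ± 6.07 in DMSO libraries and 51.0 ± 9.22 in belinostat libraries. RPS19, the gene first linked to Diamond-Blackfan anaemia, had 63.3 ± 4.31 CPM per kb in unstimulated libraries (SD, n = 6), 46.5 ± 4.64 in DMSO libraries and 39.6 ± 5.45 in belinostat libraries. These levels overlapped between libraries, since RPL18 ranged from 66.8 to 85.5 CPM per kb in unstimulated libraries and RPS19 from 57.4 to 70.1. At the lower end, RPS10 had 11.7 ± 0.969 CPM per kb in unstimulated libraries, RPS15 11.7 ± 1.42 and RPL3L 1.85 ± 0.607 (SD, n = 6 each). Of the 75 pairs of neighbours in the order of unstimulated levels, 1 did not overlap between libraries, RPS15 and RPL3L. With and without the start run the levels were similar, with a median over all libraries of 22.3 CPM per kb at the 62 main peaks that held a canonical start with a run and 22.8 at the 10 without.

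**Figure D3:**
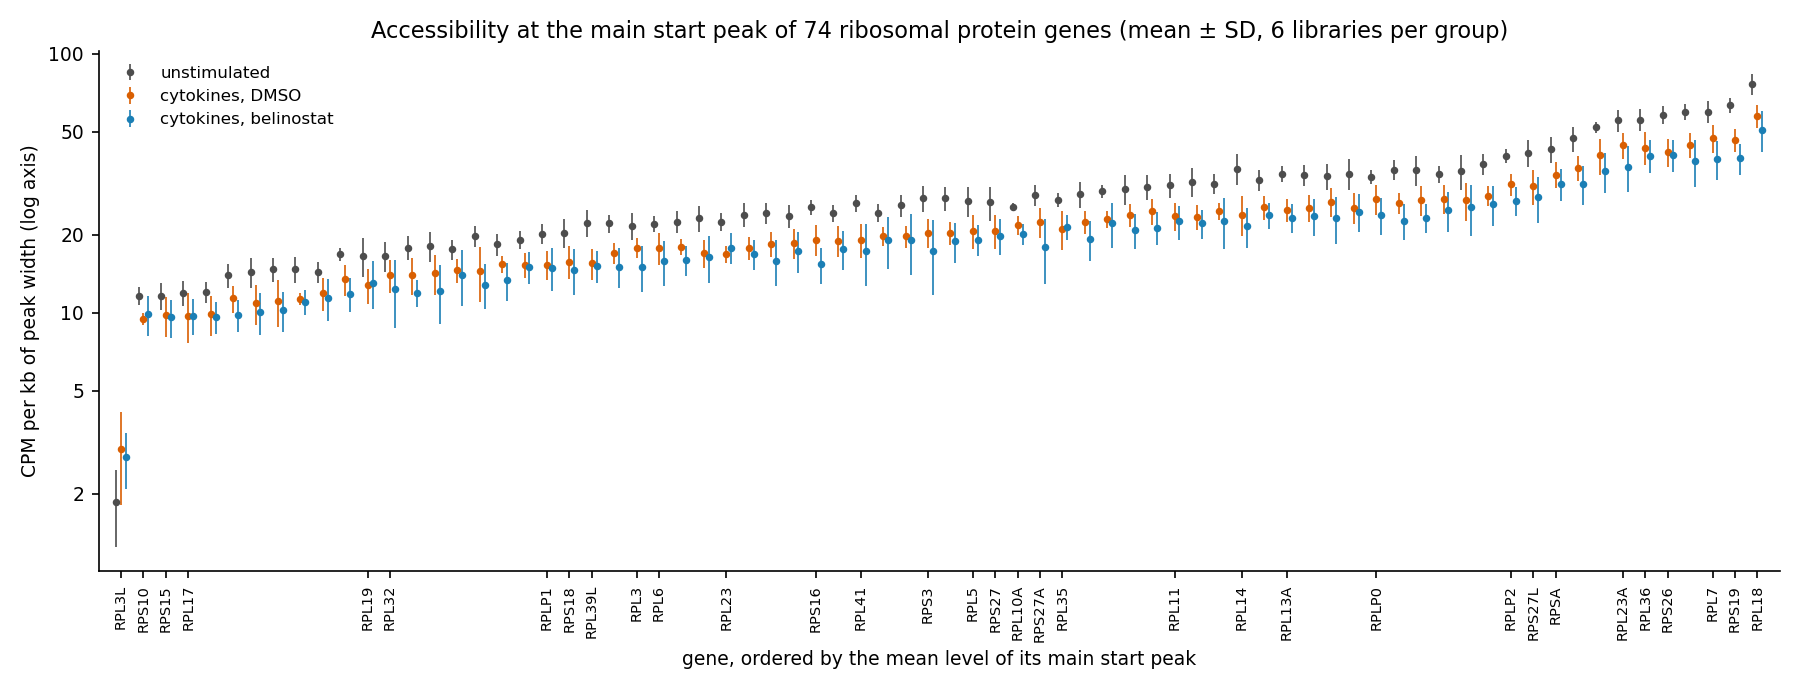
Level of the main start peak of 74 of the 76 genes in CPM per kb of peak width (vertical log axis), in order of the mean level (horizontal axis, with genes named in the text labelled). Points and bars are the mean ± SD of 6 libraries per group. Unstimulated levels were 76.4 at RPL18 and 1.85 at RPL3L, which stood well below all others shown.

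The cytokine contrast compared pulsed cells, after weeks without cytokines, with unstimulated cells. The labels name DMSO only for pulsed cells, so the solvent and the pulses cannot be told apart here. With library scaling by TMM (trimmed mean of M values), 74 of the 105 member peaks were called closed (70.5%) and 0 opened at an adjusted p under 0.05 in edgeR's quasi-likelihood test, but with offsets that flatten each library's trend with abundance (loess) 0 of 105 were called. Without adjustment, 91 members had an unadjusted p under 0.05 with a lower value and 1 with a higher value in edgeR. Lower values with such a p were found at 15357 of the 16743 strongest peaks and 10147 of 15079 main start peaks. Over all 334857 peaks there were 49156 lower and 64846 higher. DESeq2 called 53 members closed, beside 5.55% of all peaks and 59.9% of the strongest 5%. Over all peaks, 9.73% were called closed and 9.51% opened with TMM. Members resembled other strong peaks and other starts, since 79.1% of the strongest 5% of peaks were called closed (0.137% opened) and 55.9% of the main start peaks of all autosomal protein-coding genes (2.87% opened). Of the 66 members in the strongest 5%, 60 were closed. The median log2 fold change was -0.37 over all members, -0.368 over the strongest 5% of peaks and -0.33 over the main start peaks. It was -0.206 over all peaks at coding starts, members left out, and 0.13 over all peaks.

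Among main peaks 64 of 76 were closed (84.2%), with log2 fold changes from -0.59 to 0.73, and among the other members 10 of 29. The large subunit had 37 of 45 closed, with a median of -0.37 (0.0131 with loess offsets), and the small subunit 27 of 31, with a median of -0.356 (-0.00799 with loess offsets). RPL14, a protein of the large subunit, had the largest fall. Its log2 CPM (lowest, median and highest of 6 libraries) was 4.08, 4.30 and 4.57 in unstimulated libraries, 3.41, 3.65 and 4.02 under DMSO and 3.30, 3.54 and 3.96 under belinostat. All DMSO libraries lay below all unstimulated ones, while DMSO and belinostat libraries overlapped. The log2 fold change was -0.59 ± 0.12 (SE, edgeR adjusted p 0.000263) with TMM and -0.25 with loess offsets (adjusted p 0.0734). The next falls were at RPL39L (-0.53, edgeR adjusted p 0.000944), RPS26 (-0.47, adjusted p 0.00174) and RPL41 (-0.46, adjusted p 0.00399), which encodes the smallest ribosomal protein.

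The stalk genes were closed at 3 of 3 main peaks with TMM, beside 84.2% of all 76 main peaks, and at 0 with loess offsets. Log2 CPM at RPLP2 was 5.49, 5.62 and 5.72 in unstimulated libraries, 5.13, 5.24 and 5.48 under DMSO and 4.82, 5.08 and 5.25 under belinostat (lowest, median, highest). The DMSO libraries lay just below the unstimulated ones, without overlap, and the change was -0.37 ± 0.10 (SE, edgeR adjusted p 0.00728). At the main peak of RPLP0, chr12:120200778-120201898, log2 CPM was 5.12, 5.24 and 5.37 in unstimulated libraries, 4.71, 4.98 and 5.25 under DMSO and 4.42, 4.71 and 5.04 under belinostat. Here unstimulated and DMSO libraries overlapped. The change of -0.29 ± 0.11 (SE) passed the threshold narrowly (edgeR adjusted p 0.0426) and did not pass it when any of 10 single libraries, 6 unstimulated and 4 DMSO, was left out (adjusted p up to 0.129).

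Genes that serve as references in expression assays were closed at 4 of 5 main peaks with TMM, beside 84.2% of all 76, and at 0 with loess offsets. RPL13A had log2 CPM of 4.83, 4.89 and 5.11 in unstimulated libraries, 4.31, 4.46 and 4.67 under DMSO and 4.04, 4.44 and 4.54 under belinostat. The unstimulated libraries were all higher than those of both other groups, and the change was -0.46 ± 0.11 (SE, edgeR adjusted p 0.00167). RPS18 fell by 0.38 on the log2 scale (edgeR adjusted p 0.0136), a call lost without unstimulated 1, unstimulated 6 or DMSO 4 (adjusted p up to 0.0661). RPL19 fell by 0.38 (edgeR adjusted p 0.0449) and lost its call without any of 7 single libraries. RPL32 was not called, with -0.25 (edgeR adjusted p 0.16), and its libraries overlapped, at 3.69, 3.80 and 4.14 in unstimulated and 3.32, 3.66 and 3.91 in DMSO.

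Genes of Diamond-Blackfan anaemia were closed at 7 of 7 main peaks with TMM (median -0.412) and at 0 with loess offsets (median -0.0195). Of all 76 main peaks 84.2% were closed with TMM (median -0.366), and the difference from this list was not tested. The list includes RPS19, RPL5 and RPL11, and RPL5 and RPL11 also bind the p53 regulator MDM2. At RPS19 log2 CPM was 5.93, 6.07 and 6.22 in unstimulated libraries, 5.51, 5.59 and 5.88 under DMSO and 5.10, 5.43 and 5.62 under belinostat. The DMSO libraries were all below the unstimulated ones, and the change was -0.44 ± 0.10 (SE, edgeR adjusted p 0.00117) with TMM and -0.02 with loess offsets (adjusted p 0.84). The 4 main peaks with the least negative or positive changes were RPL3L (0.73, edgeR adjusted p 0.0752), RPL10A (-0.23, 0.0934), RPL32 and RPS15 (-0.25, 0.133), and none of them was called.

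The paralogues differed from each other. RPL39L and RPS27L were closed (-0.53 and -0.42, edgeR adjusted p 0.000944 and 0.00328) and RPL3L was not called. Log2 CPM at RPL3L was -0.19, 0.16 and 0.70 in unstimulated libraries, -0.46, 0.87 and 1.20 under DMSO and 0.28, 0.71 and 1.00 under belinostat. It was the weakest main peak, its groups overlapped, and its signal rested on few counts, down to 3 in a library. The change of 0.73 ± 0.31 (SE, edgeR adjusted p 0.0752) passed the threshold when unstimulated 5 or DMSO 3 was left out (adjusted p down to 0.0242).

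**Figure D4:**
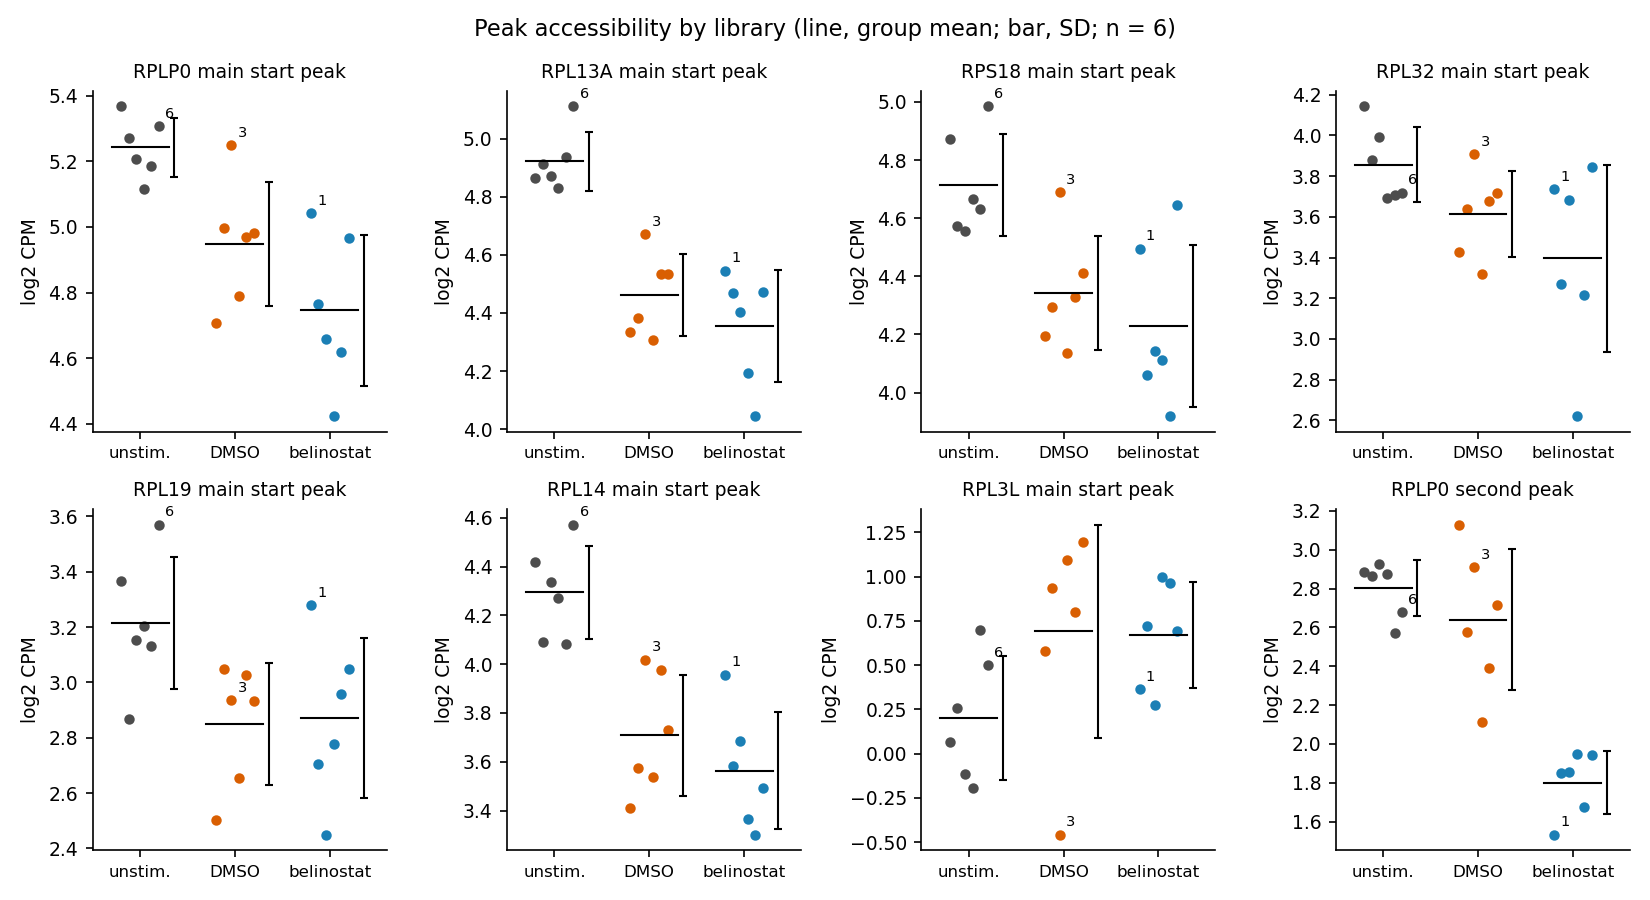
Log2 CPM (vertical axis) of each library by group for selected peaks, with the replicate number beside unstimulated 6, DMSO 3 and belinostat 1. The line is the group mean and the bar the SD of 6 libraries. With TMM, unstimulated libraries lay above DMSO libraries at RPL14, groups overlapped at RPL32, and belinostat libraries lay below both other groups at the second RPLP0 peak.

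Other genes of protein synthesis and turnover gave similar values. Translation factor genes were closed at 14 of 16 (median -0.353), mitochondrial ribosomal protein genes at 52 of 75 (-0.35) and proteasome genes at 29 of 37 (-0.355), against 64 of 76 and -0.366 at the cytosolic ribosomal protein genes. The difference between these lists was not tested. With loess offsets the medians of these 3 lists lay between 0.00265 and 0.0231, with 1 translation factor peak called opened and 1 proteasome peak called closed.

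The members' change followed the scaling. Over all peaks the median was 0.13 with TMM, 0.341 with library totals, -0.299 with TMM over the weaker 50% of peaks and 0.0149 with loess offsets. Set against these values, the members' median was -0.50 with TMM, -0.495 with library totals, -0.509 with the weaker peaks and -0.021 with loess offsets. Relative to the median of the strongest 5% of other peaks, it was -0.00144, -0.000419, 0.00901 and -0.0194. With library totals 20 members were closed and 1 opened, where 3.25% of all peaks and 28.9% of the strongest 5% were closed. With the weaker peaks 98 members were closed, where 25.2% of all peaks and 98.7% of the strongest 5% were closed. With loess offsets 2.00% of all peaks were opened and 1.90% closed, and 0 of 105 members were called in either direction. The first 3 scalings move all peaks of a library alike, so their differences from the strong peaks are a single comparison given 3 times, and only loess offsets make another. Whether the trend with abundance came from signal over background or from chromatin was not tested.

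**Figure D5:**
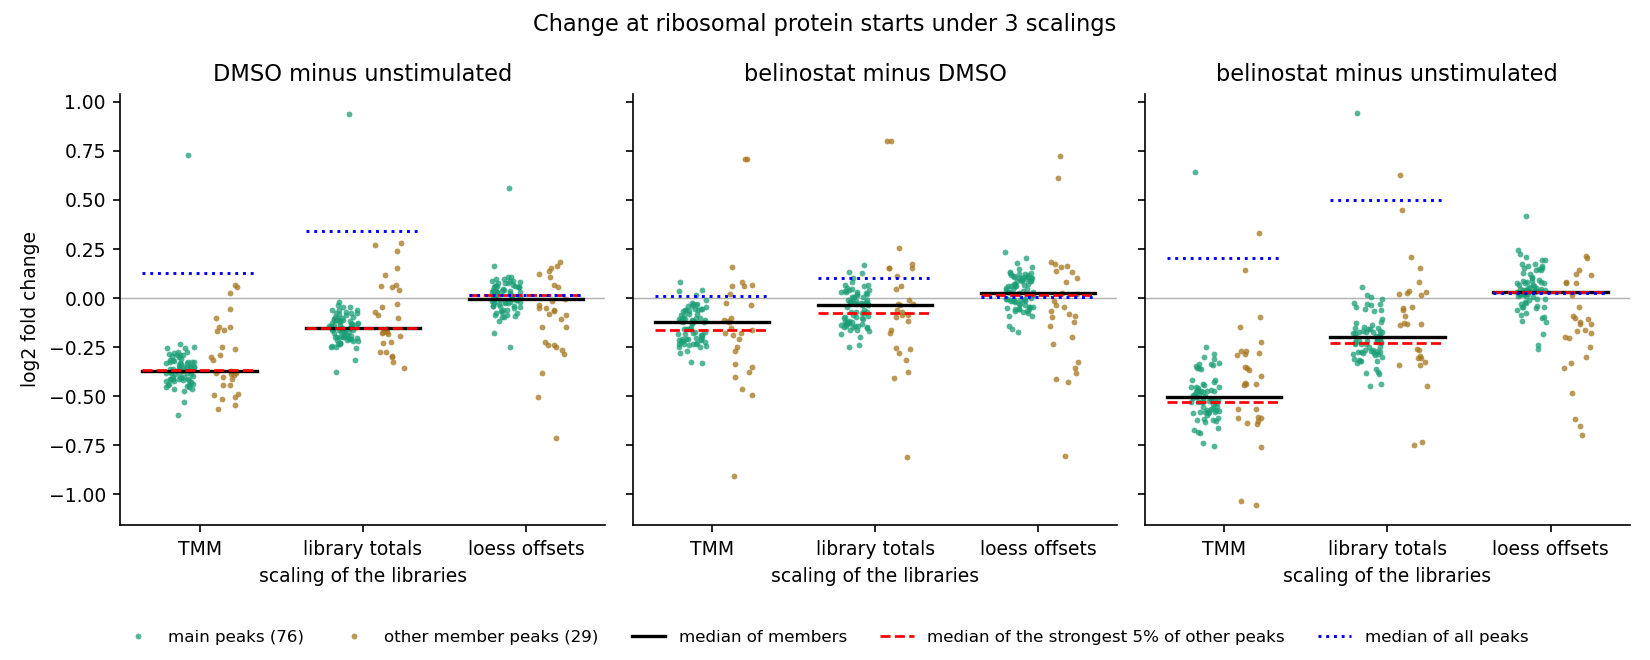
Log2 fold change (vertical axis) of each of the 105 member peaks in the 3 contrasts under 3 scalings of the libraries (horizontal axis), with points for main and other member peaks. Lines mark the median of the members, of the strongest 5% of other peaks and of all peaks. In the cytokine contrast the members' median lay close to that of strong peaks, at -0.37 and -0.368 with TMM and at -0.00604 and 0.0134 with loess offsets.

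The belinostat contrast asked what the inhibitor changed in cytokine-pulsed cells. At the starts of ribosomal protein genes little passed the test. Of the 105 members 0 were opened and 1 was closed in edgeR. DESeq2 also called 1, beside 4.51% of peaks with an adjusted p and 11.6% of the strongest 5% closed. An unadjusted p under 0.05 in edgeR was reached by 14 members with a lower and 1 with a higher value. Of the 76 main peaks 0 were called, and 10 had an unadjusted p under 0.05, each with a lower value. Lower values with such a p were found at 2093 of 15079 main start peaks and 5185 of the 16743 strongest peaks. Over all 334857 peaks there were 25729 lower and 27502 higher. In edgeR, over all peaks 0.607% were opened and 1.75% closed, over the main start peaks of protein-coding genes 0.206% and 1.15%, and over the strongest 5% of peaks 0.233% and 9.26%. The members' median of -0.124 lay between that of the main start peaks (-0.11) and that of the strongest 5% (-0.163), and it turned to 0.0275 with loess offsets, under which 0.945% of all peaks were opened and 1.51% closed.

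The called peak lay at RPLP0, at chr12:120199866-120200232, and was not the start peak itself. Its centre was 1062 bases downstream of the canonical start, in intron 2 of the canonical transcript, and fell in an exon of 3 of the 25 annotated transcripts that span it. The nearest annotated start was 766 bases away. Log2 CPM was 2.57, 2.87 and 2.93 in unstimulated libraries, 2.11, 2.65 and 3.13 under DMSO and 1.53, 1.85 and 1.95 under belinostat. All belinostat libraries lay below all others, and unstimulated and DMSO libraries overlapped. Belinostat 1, which was highest in its group at most main peaks, was the lowest here. Per length, the level was 18.3 ± 1.82 CPM per kb in unstimulated libraries, 16.6 ± 4.33 under DMSO and 8.76 ± 1.04 under belinostat (SD, n = 6 each).

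The log2 fold change of this peak was -0.91 ± 0.18 (SE, edgeR adjusted p 0.000247) under belinostat, against -0.15 in the cytokine contrast (adjusted p 0.503) and -1.06 in the residual contrast (adjusted p 5.28e-07). It was called in the belinostat contrast under each of 26 alternative fits, with values from -1.07 to -0.788 and adjusted p from 4.26e-05 to 0.00418. The unfiltered fit among them is the main fit itself, and loess offsets gave -0.81 (adjusted p 0.000787). At the RPLP0 main peak upstream of it, the belinostat change was -0.20 (edgeR adjusted p 0.357) with TMM and -0.01 with loess offsets. The difference between the changes of these peaks was not tested.

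Within the second RPLP0 peak the AP-1 word TGANTCA occurred at 1 place, 80 bases from the peak's centre, where it matched on both strands. It is shown in capitals on the plus strand with 10 bases on each side, because no start window of RPLP0 held this word.

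RPLP0 second peak (chr12:120200119-120200145, plus strand): ttccttacaaTGAGTCAttcctgacct

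The word was present in 19.8% of 324496 autosomal peaks set to the same width of 367 bp. Of the other words searched, CCAAT occurred once, on the minus strand.

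The 4 most negative belinostat changes at main peaks did not pass the test. RPS27A, which encodes ubiquitin fused to a small subunit protein, had log2 CPM of 4.50, 4.62 and 4.96 in DMSO and 4.00, 4.24 and 4.97 in belinostat libraries. The highest belinostat value was that of belinostat 1 and lay above all DMSO libraries. The change was -0.33 (edgeR adjusted p 0.128). RPS16 had -0.33 (edgeR adjusted p 0.171), RPL23A -0.28 (0.164) and RPL7 -0.27 (0.167). At the other end, RPL23 had 0.08 (edgeR adjusted p 0.772), RPS10 0.04 (0.898), RPL19 0.04 (0.923) and RPL35 0.02 (0.959). Leaving out belinostat 1 raised the number of closed members from 1 to 6, where 2.6% of all peaks were closed. The added calls were RPS27A (-0.48, edgeR adjusted p 0.00319), RPL23A (-0.39, 0.00887), RPL7 (-0.35, 0.0158), RPS3 (-0.40, 0.0452) and a second RPL3 peak (-0.52, 0.0483). The main peaks among these were called only when belinostat 1 was left out, while the RPL3 peak was also called without DMSO 5 or belinostat 6.

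The residual contrast measured what remained different from untreated cells after both treatments. With TMM 85 of 105 members were closed (81.0%) and 0 opened, and with loess offsets 2 were closed and 3 opened. Over all peaks 13.7% were closed and 16.8% opened with TMM, over the main start peaks of protein-coding genes 65.6% and 4.78%, and over the strongest 5% of peaks 94.9% and 0.108%. Over all peaks at autosomal coding starts, members left out, 35.9% were closed and 10.4% opened. Main peaks were closed at 70 of 76 genes (92.1%), and 66 of 66 members in the strongest 5% were closed. The members' median log2 fold change of -0.503 lay between those of the main start peaks (-0.443) and the strongest 5% (-0.53), and below the -0.211 of the other peaks at coding starts. With library totals it was -0.20, and with loess offsets 0.0308, beside 0.0278 over all peaks.

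RPL14 again had the largest fall among main peaks (-0.75 ± 0.13, SE, edgeR adjusted p 7.97e-07). It was followed by RPS16 (-0.74, edgeR adjusted p 8.04e-07), RPS3 (-0.69, 6.13e-06), a small subunit protein also known for a role in DNA repair, and RPS19 (-0.68, 5.22e-08). At RPS16 log2 CPM was 4.12, 4.29 and 4.43 in unstimulated and 3.17, 3.63 and 3.82 in belinostat libraries, without overlap. With loess offsets these 4 peaks had -0.26, -0.24, -0.18 and -0.05, none of them called. RPL3L (0.64, edgeR adjusted p 0.117), RPS10 (-0.25, 0.128), RPS15 (-0.29, 0.0781) and RPL17 (-0.30, 0.0846) were at the other end and were not called with TMM. Of the related lists, translation factor genes were closed at 15 of 16, mitochondrial ribosomal protein genes at 66 of 75 and proteasome genes at 35 of 37, with 1 proteasome peak opened. In the belinostat contrast 0 peaks of these lists were called, with medians from -0.16 to -0.132. With loess offsets 0 translation factor, 0 mitochondrial and 1 proteasome peak were closed in the residual contrast and 2, 1 and 1 opened, and the belinostat medians turned to 0.0379, 0.0237 and 0.0304.

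Loess offsets left 5 called members in the residual contrast, where 3.82% of all peaks were opened and 4.92% closed. The closed ones were the second RPLP0 peak (-0.70, edgeR adjusted p 0.00218) and a second RPL3 peak at chr22:39318202-39318571, which was singled out after its values had been seen. RPL3 encodes a protein near the catalytic centre of the large subunit, and the centre of this peak lay in an annotated exon, 228 bases from the nearest start. Log2 CPM was 3.20, 3.50 and 3.63 in unstimulated libraries, 2.31, 3.00 and 3.27 under DMSO and 2.11, 2.51 and 2.83 under belinostat. Unstimulated and belinostat libraries did not overlap, and the DMSO libraries overlapped with both. The residual change was -1.04 ± 0.15 (SE, edgeR adjusted p 1.33e-08) with TMM and -0.62 (adjusted p 0.00061) with loess offsets. Under each of 26 alternative fits, of which the unfiltered one is the main fit itself, this change was called. In the cytokine contrast it was -0.54 (edgeR adjusted p 0.00336) and in the belinostat contrast -0.49 (adjusted p 0.0744).

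The opened ones were RPL10A (0.25, edgeR adjusted p 0.00338), RPL35 (0.21, 0.0287) and RPL36 (0.16, 0.0239), the last also named after its values had been seen. With TMM the same peaks were called closed, at -0.35 (edgeR adjusted p 0.00785), -0.36 (0.0086) and -0.47 (0.000232), so that their direction depended on the scaling. Log2 CPM at RPL10A with TMM was 5.28, 5.38 and 5.44 in unstimulated and 4.81, 5.03 and 5.23 in belinostat libraries, which did not overlap on this scale. RPL35 shares its peak with the start of ARPC5L and RPL36 with those of HSD11B1L and MICOS13. No AP-1 word was present in the start windows of 75 of the 76 genes, and no difference between main peaks with and without a word was tested. In the cytokine contrast the median log2 fold change was -0.38 at 42 main peaks with the ETS word and -0.347 at 30 without, and -0.374 at 62 with the pyrimidine run and -0.335 at 10 without. Of the features searched, the belinostat medians differed most for TATAAA, with -0.226 at 6 main peaks that held it and -0.118 at 66 without, and for the YY1 word, with -0.219 at 13 and -0.119 at 59. In the cytokine contrast, which shares the DMSO libraries, the order was reversed (-0.291 and -0.374 for TATAAA, -0.332 and -0.373 for the YY1 word). The residual medians lay close together (-0.523 and -0.516, -0.536 and -0.511).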

How the data were processed

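ATAC-seq libraries of 18 samples were grouped by their labels. The authors ran the ENCODE ATAC-seq pipeline against hg38, called consensus peaks with MACS2, annotated them with ChIPseeker 1.34.1 and counted fragments with csaw. The authors deposited raw counts of fragments per consensus peak, without normalization. Reads outside peaks were not analysed here, so background bins, which the study used for scaling, were replaced by TMM factors over peaks. Transposase offset and fragment length were not analysed here.

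Counts were tested with edgeR 4.0.16 (R 4.3.3; glmQLFit and glmQLFTest, 1 mean per group over all 18 libraries, no covariate). Adjustment followed Benjamini-Hochberg across the 334857 peaks, with calls at an adjusted p under 0.05. The study's filter, an average log2 CPM over -3, removed 0 peaks, so the alternative without a filter is the main fit itself. A prior count of 2 entered log2 CPM. The scripts were tested on simulated data. Peak starts are counted from 1. Alternatives were library totals, TMM over sums in 10 kb bins, TMM over the weaker 50% of peaks, offsets from loess (limma 3.58.1), DESeq2 1.42.0, a filter at a log2 CPM of 0, no filter, the replicate number as a block, each library left out, and narrower definitions of members. The lowest count of a member in a library was 1, and of a main peak 3. Depth limits the precision of such peaks.

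Canonical starts and their sequences came from GENCODE release 44 and the hg38 genome. RefSeq gave a start for 59 of the member genes, at the same base for 57.

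The members and lists were chosen with earlier results of these data known. Named were, by main peak, the 4 largest rises and falls per contrast, the 3 highest and lowest levels per kb, the members called under belinostat, and genes fixed by role (stalk, reference, Diamond-Blackfan anaemia, paralogues). Other named peaks are given as such, and some items are not reported here. Replicate numbers recur in the groups, and deviations of same-numbered libraries correlated by -0.183 to 0.151, so numbers were not taken as pairs. No libraries were merged. Between libraries of a group, chi-square over peaks per degree of freedom ran from 1.02 to 1.99, where sampling noise alone gives about 1. Pairs close to that were unstimulated 3 with 4 (1.02) and with 5 (1.03), and belinostat 2 with 3 (1.03) and 4 with 5 (1.04). Whether such pairs came from separate cultures was not tested.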

Additional observations from a re-analysis of the deposited data

Results flagged for a closer look

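A library stood apart from the other 5 of its group at 2 of the peaks named, among 96 groups of 6 examined, and chance alone would mark about 1 in 20. Both cases were DMSO 3. At RPL3L its log2 CPM of -0.458 was the lowest of the group, with the nearest library at 0.581. At RPS27L its log2 CPM of 5.52 was the highest, with the nearest library at 5.11. DMSO 3 also had the largest share of counts at coding starts in its group (38.17%), and the part of this in both values was not tested.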

How the results depend on the processing

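The members' medians moved most with the scaling. Library totals gave -0.154 in the cytokine contrast, with 20 members closed and 1 opened. Over all peaks 3.25% were closed and 16.2% opened there, and 28.9% of the strongest peaks were closed. In the residual contrast library totals gave -0.2, with 47 members closed and 1 opened. Here 6.31% of all peaks were closed and 30.4% opened, and 59.3% of the strongest peaks were closed. TMM over the weaker 50% of peaks gave -0.807 and -1.06 in these contrasts. Loess offsets gave -0.00604 in the cytokine (0 closed), 0.0275 in the belinostat and 0.0308 in the residual contrast (2 closed, 3 opened). Library totals gave a belinostat median of -0.0373, and scaling on weaker peaks -0.243. In each 1 member was closed, beside 1.46% and 1.01% of all peaks. A filter at a log2 CPM of 0 left 46 members closed and 1 opened in the cytokine contrast. Of the peaks kept, 9.94% were closed and 11.3% opened, and 55.8% of the strongest peaks were closed. In the residual contrast 71 members were closed and 1 opened. There 15.6% of the peaks kept were closed and 17.9% opened, and 81.8% of the strongest peaks were closed. The medians with this filter were -0.246 (cytokine), -0.0769 (belinostat) and -0.331 (residual). The belinostat call was absent among members within 500 bp of a start (0 closed), at canonical starts (0) or among main peaks (0). The share of counts in members was 0.588%, 0.571% and 0.56% of the counts at coding starts, and with canonical starts only it was 0.213% of all counts in unstimulated and 0.191% in DMSO libraries. The other alternatives, apart from leaving out a library, moved counts, medians and shares by less than 1.5 times.

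With each library left out in turn, closed members numbered 41 (without unstimulated 6) to 80 (without DMSO 3) in the cytokine contrast, also 48 without unstimulated 1, with 0 to 1 opened and medians from -0.417 to -0.309. They numbered 1 to 6 in the belinostat contrast (6 without belinostat 1, 2 without DMSO 5 or belinostat 6), with 0 opened and medians from -0.201 to -0.0654, and 77 to 93 in the residual contrast, with 0 opened and medians from -0.574 to -0.456. Over all peaks 6.18% to 11.1%, 1.16% to 2.6% and 11.6% to 15.0% were closed in the cytokine, belinostat and residual contrasts.

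The replicate numbers did not pair the samples: in 3 of 18 comparisons a library correlated best with its own number in the other group. With the replicate number as a block, 76 members were closed in the cytokine, 1 in the belinostat and 86 in the residual contrast. Their medians were -0.371, -0.125 and -0.504. Over all peaks 10.3%, 1.86% and 13.8% were closed in this fit, and 84.4%, 11.3% and 95.8% of the strongest peaks.

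The values without a filter equal the main values and are counted here as kept. Of 2574 values of the peaks named, 2325 kept direction and side of the threshold, 73 called in neither setting changed sign, 119 lost and 31 gained a call, and 26 that were called in at least 1 of the settings compared changed sign, all with loess offsets. In the cytokine contrast these were RPL18 0.0131, RPL23A 0.0955, RPL35 0.00836, RPL36 0.0556, RPL7 0.0867, RPLP0 0.0977, RPLP2 0.0309, RPS24 0.0607 and RPS27A 0.0396. In the residual contrast they were RPL10A 0.248, RPL11 0.0689, RPL18 0.0422, RPL23 0.174, RPL23A 0.0211, RPL32 0.036, RPL35 0.212, RPL36 0.165, RPL5 0.0413, RPL7 0.04, RPLP0 0.0857, RPLP1 0.145, RPLP2 0.0189, RPS18 0.0664, RPS24 0.0775, RPS26 0.0222 and RPS27L 0.00855. The cause was not tested. Depth limited the weakest members, such as RPL3L.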
